A study of Zea mays with 6 samples.

Results

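The distal end of the long arm of maize chromosome 3 was examined in kernels of the opaque11 mutant (o11) and of the wild type (WT). Its members were chosen by position on B73 RefGen_v3 and by level, as the loci past a limit on chromosome 3 that lies between the locus starts 204998573 and 205063871 and that reached 1 FPKM (a fragment count normalised to feature length and library size) in at least 3 of the 6 libraries. The files list 707 loci past the limit, up to 232184249, and 504 of them are members, out of 22314 loci that passed the same filter over the genome and 1907 over the rest of chromosome 3. The stretch was picked with results of these libraries known, so counts over the members are descriptions and carry no test. Each locus is given by position only, because the files pair no locus with a gene name. No role is therefore given to any locus, neither the mutated gene nor kernel marker genes were identified here, and no sequence is printed.

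The o11 libraries came from homozygous mutant maize and the WT libraries from wild-type maize, 3 libraries each, all at 15 days after pollination. The labels give the tissue as kernel, and the series design text gives endosperm. They do not state the mutant allele, the inbred background, or whether the libraries of a genotype came from separate ears. The p-values therefore cover only library-to-library spread, part of which may be technical, and fewer cells of a type in the mutant kernel cannot be told apart from less RNA per cell.

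As background, O11 is a DNA-binding protein of the basic helix-loop-helix family that acts in the endosperm, the kernel tissue that fills with starch and storage protein. It is related to the Arabidopsis factor ZHOUPI, which acts in endosperm breakdown and embryo cuticle formation in that species. The ends of maize chromosome arms are gene-rich and recombine often, while the middle is dense in repeats. Along the chromosome 3 end the files list 26.1 loci per Mb, against 13.4 per Mb over the rest of the chromosome. The share of loci that passed the filter was 71.3% there and 69.3% in the rest of the chromosome, and the median member had a mean of 9.22 FPKM, against 9.09 FPKM.

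Summed FPKM over all loci ran from 784761 to 1001870 in o11 libraries and from 847961 to 1072270 in WT libraries. The number of sequenced fragments is unknown. Relative depth read from the steps between low values was 0.883 to 1.30 in o11 libraries and 1.0 to 1.11 in WT libraries, with WT replicate 1 set to 1. On component 1 of the members' log2 values (45.3% of the variance), the replicate 3 libraries of o11 and WT scored 10.2 and 8.45, and the other 4 libraries -8.79 to -0.736. Component 2 (34.8%) had o11 libraries at 4.22 to 7.60 and WT libraries at -9.71 to -0.807. Over the members, libraries with the same replicate number deviated together from their genotype means (Pearson's r = 0.74, 0.70 and 0.75 for numbers 1, 2 and 3, over 504 loci that share libraries). Changes are given without the replicate number as a block and, as the paired fit, with it.

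Most members were nearly as abundant in o11 as in WT. The median change, as the o11 minus WT difference of mean log2(FPKM + 1), was 0.02 over the members, 0.01 over the rest of chromosome 3 and 0.00 over all tested loci. For 402 of the 504 members (79.8%) the change was smaller than 0.5 on this scale, against 80.4% of all tested loci. In the same-numbered pairs 1, 2 and 3 the median member difference was 0.04, 0.00 and 0.00, and 274, 252 and 253 members were higher in o11. All 3 pairs agreed in sign for 294 members, 151 higher and 143 lower in o11 (58.3%, against 59.1% of all tested loci, of which 29.4% were higher and 29.6% lower). The o11 and WT values did not overlap for 121 members (24.0%, against 21.5% of all tested loci), 55 of them higher (10.9%, against 9.86%) and 66 lower (13.1%, against 11.7%) in o11. Across the 504 members the differences of 2 pairs correlated at 0.76 (pairs 1 and 2), 0.63 (pairs 1 and 3) and 0.64 (pairs 2 and 3), and at 0.72, 0.57 and 0.56 without the locus of the largest change.

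Without the replicate block, limma with Benjamini-Hochberg adjustment over all loci called 4 members, 2 higher and 2 lower in o11. That is 0.794% of the members, against 0.793% of all tested loci (0.52% higher and 0.273% lower) and 0.682% of the rest of chromosome 3. In the paired fit 106 members were called (21.0%), 60 higher and 46 lower in o11, against 19.2% of all tested loci (9.83% higher and 9.33% lower) and 18.3% of the rest of chromosome 3. These shares lie near the background in each fit. At least 2-fold on the log2(FPKM + 1) scale were 27 paired calls (5.36%, against 4.17% of all tested loci), 23 rises and 4 falls. These are 4.56% and 0.794% of the members, against 2.94% and 1.22% of all tested loci and 2.88% and 1.21% of the rest of chromosome 3. Of the smaller paired changes, 37 were rises and 42 were falls, against 1536 and 1810 among the 22314 tested loci. No test was made of rises against falls between the members and the rest of the chromosome. Replicates 2 and 3 have like tool names in the processing notes. Within them alone, limma without the block called 0 members and 0 of all tested loci. There 46 members had an unadjusted p under 0.05, a count with none over all tested loci to set beside it. In all 6 libraries 81 members had an unadjusted p under 0.05 in limma without the block, against 3320 of the 22314 tested loci. The paired fit within replicates 2 and 3 called 11 members, 7 rises and 4 falls (2.18%, against 2.13% of all tested loci). Replicate 1 by itself, with a single library of either genotype, allows no test. In the replicate 1 and 2 libraries, without the replicate 3 libraries that stand apart, the paired fit called 127 members (25.2%, against 23.6% of all tested loci), 75 rises and 52 falls.

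**Figure D1:**
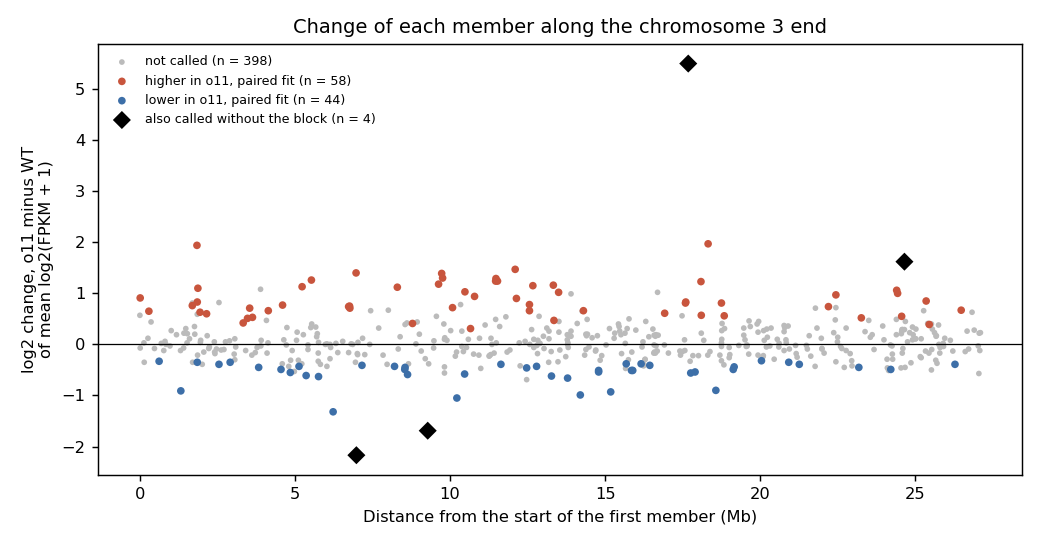
Change of each of the 504 members (o11 minus WT, mean log2(FPKM + 1)) by its distance in Mb from the start of the first member. Grey points were not called, red and blue points were called higher or lower in o11 in the paired fit, and the 4 black diamonds were also called without the block. Called members lie among uncalled ones along the whole stretch.

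The largest change of any member was a locus all but silent in WT. The locus chr3:222754576-222755800, which lies 17.68 Mb from the start of the first member, had 25.3, 45 and 118 FPKM in o11 replicates 1 to 3, against 0, 0.162 and 0.348 FPKM in WT replicates 1 to 3. All o11 libraries were far above all WT libraries, and replicate 3 was the highest in both genotypes. Its log2 change was 5.50 (SE 0.53, limma adjusted p = 0.0209, and 0.00337 in the paired fit), with pair differences of 4.72, 5.31 and 6.47. The nearest called members on its 2 sides went opposite ways in the paired fit. The locus chr3:222678626-222680314 had 21.9, 33.2 and 47.3 FPKM in o11, against 10.4, 18.4 and 29.8 FPKM in WT, and rose by 0.83 (limma adjusted p = 0.0105). The locus chr3:222836885-222839172 had 32.0, 25.7 and 21.3 FPKM in o11, against 42.4, 40 and 34.5 FPKM in WT, and fell by 0.56 (limma adjusted p = 0.0178). Each of these 2 calls was lost without a replicate 1 or 2 library (limma adjusted p = 0.0583 to 0.101).

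The other 3 members called without the block were 1 rise and 2 falls. The locus chr3:229732592-229734917 (24.65 Mb from the first member) had 1.56, 2.24 and 2.63 FPKM in o11, against 0, 0 and 0.0463 FPKM in WT. It was faint in o11 and next to undetected in WT, with a log2 change of 1.62 (SE 0.21, limma adjusted p = 0.0395, and 0.00738 in the paired fit). The locus chr3:212058673-212068751 (6.98 Mb) had 25.8, 25 and 23.5 FPKM in o11, against 100.7, 98.8 and 152.5 FPKM in WT. Its o11 values were close to each other and its mean was 4.74-fold lower than in WT, a log2 change of -2.17 (SE 0.20, limma adjusted p = 0.0191, and 0.00464 in the paired fit). The locus chr3:214355254-214361335 (9.28 Mb) had 7.17, 6.57 and 7.08 FPKM in o11 and 24.4, 21.1 and 29.0 FPKM in WT. Its mean was 3.58-fold lower in o11, a log2 change of -1.69 (SE 0.16, limma adjusted p = 0.0209, and 0.00337 in the paired fit). In the paired fit these 4 calls held under each of the 14 alternatives run for single loci. Without the block each was lost without WT replicate 1, WT replicate 2, o11 replicate 1 or o11 replicate 2 (limma adjusted p = 0.0508 to 0.237). The loci at 9.28 and 24.65 Mb were also lost without either replicate 3 library (limma adjusted p = 0.0552 to 0.117), the locus at 17.68 Mb without WT replicate 3 (limma adjusted p = 0.0628) and the locus at 6.98 Mb without o11 replicate 3 (limma adjusted p = 0.0858). The call at 24.65 Mb without the block also ended with a pseudocount of 0.1 (limma adjusted p = 0.052) and with quantile normalization (limma adjusted p = 0.0614).

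Both rises above passed the filter on low values through o11 alone. In all, 7 of the 504 members reached 1 FPKM in the 3 o11 libraries and in no WT library, against 193 of the 22314 tested loci. Another 2 members did so in the 3 WT libraries and in no o11 library, against 69 of the tested loci. A difference between the genotypes was needed for these 9 to be members. Among the 23 paired rises of at least 2-fold, 3 passed through o11 alone and 14 had at least 1 FPKM in all 6 libraries, as did all 4 falls of that size. Among all 60 paired rises, 42 had at least 1 FPKM in all 6 libraries, as did all 46 paired falls. Of the members passing through o11 alone, only chr3:223847899-223851013 was not called in the paired fit (limma adjusted p = 0.109). Neither member passing through WT alone was called. The 60 rises thus include members that the filter admitted only because they were high in o11. No member was listed at 0 in all 3 libraries of a genotype. At the filter's edge, the 32 members with 1 FPKM in exactly 3 libraries had a median mean of 1.05 FPKM, and the 10 loci with 1 FPKM in exactly 2 libraries 0.846 FPKM. At the position limit, the first member, chr3:205077942-205079550, had 5.63, 7.84 and 4.92 FPKM in o11 and 2.27, 5.09 and 4.27 FPKM in WT. The last tested locus before the limit, chr3:204998573-205005632, had 8.12, 16.1 and 20.9 FPKM in o11 and 6.41, 9.19 and 11.6 FPKM in WT. It was called in the paired fit (limma adjusted p = 0.0355), but not when any 1 library was left out (limma adjusted p = 0.0528 to 0.158) or with no filter on low values (limma adjusted p = 0.0585).

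The next largest rises were called in the paired fit only. The locus chr3:223396203-223397803 (18.32 Mb) had 20.4, 37.1 and 68.9 FPKM in o11, against 5.28, 9.45 and 13.3 FPKM in WT. It was highest in replicate 3 in both genotypes and higher in o11 in each pair, by 1.77, 1.87 and 2.29 (log2 change 1.97, SE 0.13 and limma adjusted p = 0.00345 in the paired fit). The locus chr3:206915217-206915789 (1.84 Mb) had 7.44, 16.1 and 20.8 FPKM in o11 and 1.78, 4.46 and 2.66 FPKM in WT (log2 change 1.94, SE 0.22 and limma adjusted p = 0.00935 in the paired fit). The locus chr3:217177061-217180016 (12.10 Mb) had 26.0, 33.2 and 58.7 FPKM in o11 and 9.16, 10.9 and 20.4 FPKM in WT. Its pair differences were 1.41, 1.52 and 1.48, so the pairs agreed closely although the libraries of each genotype spread widely and WT replicate 3 came near o11 replicate 1.

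The locus chr3:210603647-210604747 (5.53 Mb) had 23.2, 30.2 and 25.2 FPKM in o11 and 7.54, 13.5 and 10.5 FPKM in WT (log2 change 1.26). The most abundant member that rose at least 2-fold, chr3:218404980-218407362 (13.33 Mb), had 180, 215 and 296 FPKM in o11, against 82.1, 96.6 and 127.6 FPKM in WT. Its pair differences of 1.12, 1.14 and 1.21 were nearly equal, and every o11 library exceeded every WT library (log2 change 1.16, SE 0.07 and limma adjusted p = 0.00333 in the paired fit, 0.104 without the block). The loci chr3:223169117-223172637 (18.09 Mb) and chr3:214708137-214709703 (9.63 Mb) complete the 8 largest rises with at least 5 FPKM in o11, with log2 changes of 1.23 and 1.18. These 2 calls were lost in the paired fit without a replicate 1 or 2 library (limma adjusted p = 0.0719 to 0.0793), and the first also with no filter on low values (limma adjusted p = 0.0508).

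**Figure D2:**
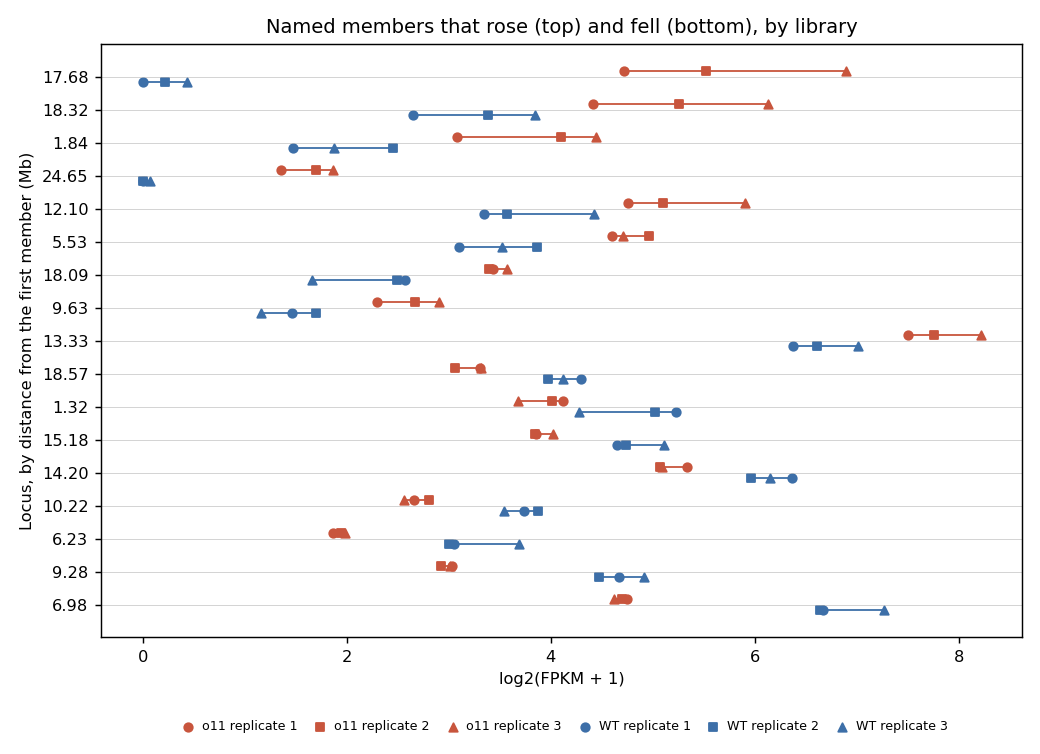
Level of the 9 named rises (top) and 8 named falls (bottom) in each library on a log2(FPKM + 1) scale, with o11 in red above WT in blue and a line from the lowest to the highest library. For each locus shown, the o11 and WT libraries do not overlap, but the loci were picked for their changes in these libraries. Among all 106 paired calls the libraries overlapped in 31. The locus at 17.68 Mb has the widest gap.

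Besides the loci at 6.98 and 9.28 Mb, the locus chr3:211311671-211315424 (6.23 Mb) had 2.63, 2.84 and 2.96 FPKM in o11, against 7.28, 7.02 and 11.9 FPKM in WT (log2 change -1.32, SE 0.16 and limma adjusted p = 0.0110 in the paired fit). The locus chr3:215295086-215300436 (10.22 Mb) had 5.30, 5.96 and 4.88 FPKM in o11 and 12.3, 13.6 and 10.6 FPKM in WT (log2 change -1.05, adjusted p = 0.00654 in the paired fit). Those are the 4 falls of at least 2-fold on the log2(FPKM + 1) scale, and in each the o11 and WT libraries did not overlap. The paired calls at 6.23 and 10.22 Mb were lost without WT or o11 replicate 1 (limma adjusted p = 0.0524 to 0.0621).

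The locus chr3:219273325-219280023 (14.20 Mb) had 39.3, 32.5 and 33.1 FPKM in o11, against 81.2, 61.3 and 69.9 FPKM in WT, a mean 2.02-fold lower (log2 change -0.99, SE 0.08 and limma adjusted p = 0.00467 in the paired fit). The loci chr3:220254011-220258502 (15.18 Mb), chr3:206396162-206414447 (1.32 Mb) and chr3:223646140-223655593 (18.57 Mb) fell by 0.93, 0.91 and 0.90 in the paired fit. Their o11 means were 14.0, 14.5 and 8.39 FPKM, against WT means of 27.8, 28.8 and 16.6 FPKM. The calls at 1.32 and 18.57 Mb were lost in the paired fit without a replicate 1 or 2 library (limma adjusted p = 0.0503 to 0.0793).

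Of the 6 most abundant members, 1 was called, and in the paired fit only. The locus chr3:213704747-213708471 (8.63 Mb) had 507, 423 and 445 FPKM in o11, against 741, 611 and 722 FPKM in WT, and fell by 0.59 in the paired fit (SE 0.08, limma adjusted p = 0.0146, and 0.243 without the block). All o11 libraries were below all WT libraries, but this call was lost without a replicate 1 or 2 library (limma adjusted p = 0.0799 to 0.0880). The most abundant member, chr3:216495981-216505345 (11.42 Mb), had 1285, 1007 and 1693 FPKM in o11 and 1286, 983 and 2446 FPKM in WT. Its genotypes overlapped, and WT replicate 3 stood well above the other 5 libraries (log2 change -0.17, limma adjusted p = 0.915, and 0.454 in the paired fit). The loci chr3:210795643-210797026, chr3:218853868-218854053, chr3:218917243-218918947 and chr3:220590843-220593572 averaged 475, 261, 286 and 251 FPKM in o11, against 414, 211, 250 and 222 FPKM in WT, and none passed the threshold (limma adjusted p = 0.774 to 0.944, and 0.123 to 0.718 in the paired fit). The third of them passed the paired fit without either replicate 3 library (limma adjusted p = 0.0327 and 0.0339).

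The members' summed FPKM did not separate the genotypes. It was 11029, 11910 and 13543 in o11 replicates 1 to 3, against 10995, 11742 and 14424 in WT replicates 1 to 3. As a share of the FPKM of all tested loci it was 1.43% ± 0.0651 in o11 and 1.32% ± 0.0700 in WT (SD, n = 3). The share was higher in o11 in each pair (1.49%, 1.43% and 1.36%, against 1.37%, 1.24% and 1.35%), with overlap between the genotypes. The rest of chromosome 3 also held a higher share in o11 in each pair, 6.06%, 6.0% and 5.51%, against 5.65%, 5.56% and 4.92% in WT. Its summed FPKM was lower in o11 in pairs 1 and 2, 45007 and 49847, against 45367 and 52543 in WT. In pair 3 it was higher in o11, 54742 against 52440. The FPKM summed over all tested loci was lower in o11 in each pair, 742223, 830486 and 993462, against 803303, 944238 and 1066550. The shares are divided by that last sum. The 10 most abundant members of a library made up 30.6% to 35.1% of the members' sum in o11 and 28.7% to 39.0% in WT.

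**Figure D3:**
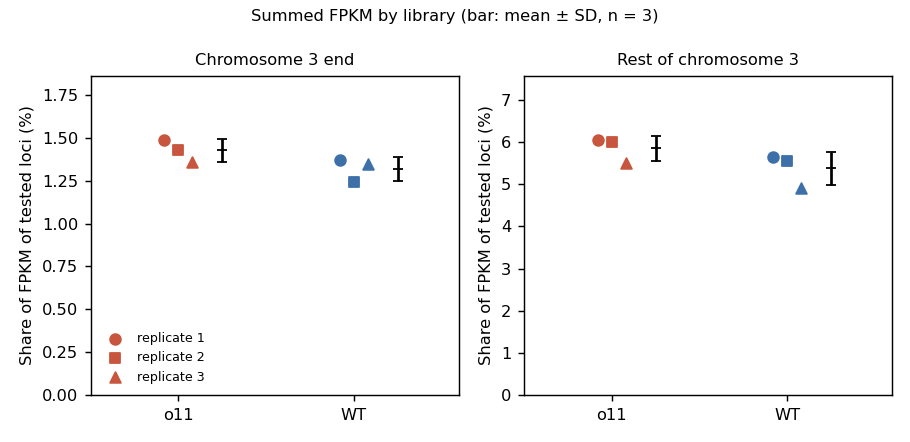
Share of the FPKM of all tested loci held by the 504 members (left) and by the 1907 other tested loci of chromosome 3 (right), in percent, per library, with symbols for the replicate numbers and the mean ± SD of the 3 libraries beside them. Within each replicate number the o11 library is above the WT library in both panels.

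Along the stretch, called members thinned out toward the chromosome end. In 5-Mb windows counted from the limit, the paired fit called 22 of 86 members (25.6%), 22 of 84 (26.2%), 26 of 101 (25.7%), 20 of 95 (21.1%) and 12 of 95 (12.6%), and 4 of 43 (9.30%) from 230 Mb on. Windows of the same size over the rest of chromosome 3 (34 with at least 20 tested loci) ranged from 4.26% (47 loci) to 27.3% (22 loci). Each of these shares lies inside that range, but its ends come from windows with fewer loci than all but the last window here. Compared with the windows of 81 to 118 loci alone, the shares of 25.6% to 26.2% were higher than all of them. The share of 21.1% was inside their range, and that of 12.6% was lower than all of them. These differences in called share were not tested, and were taken from the paired fit of all 6 libraries only. The median level of the members was also lowest in the last windows. It was 7.29 FPKM from 225 Mb and 7.84 FPKM from 230 Mb, against 9.04 to 10.6 FPKM in the others. The part of level in the called shares was not tested. Paired changes of at least 2-fold were most frequent from 210 to 215 Mb, with 7 rises and 3 falls, and from 215 to 220 Mb, with 8 rises and 1 fall, and absent from 230 Mb on. The highest window of the rest of the chromosome had 14.3% such loci, out of 21 tested. The shares were 11.9% of 84 members from 210 to 215 Mb and 8.91% of 101 from 215 to 220 Mb. Over the rest of the chromosome the median window had 3.71%, and the windows with 81 to 118 loci had 1.23% to 6.90%. This difference was not tested. Window medians of the log2 change ran from -0.01 to 0.11, within the -0.17 to 0.12 of the other windows. The 230-Mb window, with the highest median of 0.11, holds 43 members and had pair medians of 0.03, -0.04 and 0.05.

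**Figure D4:**
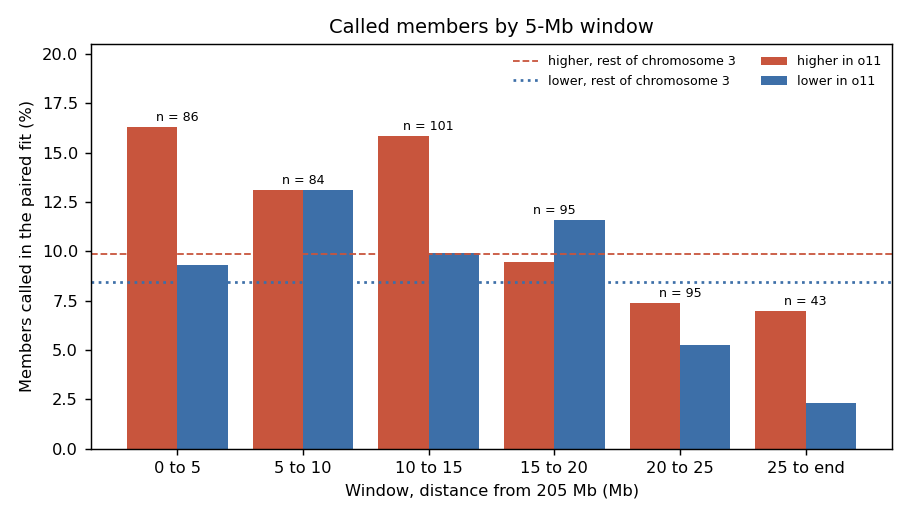
Share of members called higher (red) or lower (blue) in o11 in the paired fit, in percent, for 5-Mb windows counted from the limit, with the number of members above the bars. The dashed and dotted lines give the shares of rises (9.86%) and falls (8.44%) over the rest of chromosome 3. The windows from 20 Mb past the limit lie below the 2 lines.

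Among 202 pairs of consecutive members with a gap of at most 20 kb, the log2 changes correlated at 0.05, against 0.12 over 601 such pairs in the rest of chromosome 3. Both neighbours were called in the paired fit in 11 pairs (5.45%, against 4.49% of such pairs in the rest of chromosome 3), 9 in the same direction and 2 in opposite directions. In the rest of chromosome 3 these were 27, 16 and 11 pairs, so the share of such pairs lies near that of the rest. The loci chr3:229475962-229506517 and chr3:229507263-229511632, 745 bases apart, rose by 1.06 and 1.0 in the paired fit. They had 5.67, 3.07 and 3.20, and 14.7, 17.6 and 10.8 FPKM in o11, against 1.87, 1.17 and 1.04, and 6.13, 8.90 and 5.04 FPKM in WT. The loci chr3:219866298-219869078 and chr3:219869099-219870697 lie 20 bases apart and fell by 0.54 and 0.51. At chr3:212049140-212050240, 8432 bases from the strongly fallen locus at 6.98 Mb, a small locus rose: it had 2.97, 4.05 and 4.6 FPKM in o11, against 0.249, 1.36 and 1.06 FPKM in WT (log2 change 1.4, adjusted p = 0.00987 in the paired fit). These pairs were chosen after their values were seen. Each of the 5 calls was lost in the paired fit without either replicate 1 library (limma adjusted p = 0.0575 to 0.124), and those at the starts 229475962, 219866298 and 219869099 also without either replicate 2 library (limma adjusted p = 0.0572 to 0.0950). How the counting divided reads between loci this close is not given in the sources used here, so single values of such neighbours are uncertain.

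Direction went with locus length. The member rule sets no length, but FPKM is itself divided by a length, and which length the authors used is not given in the sources used here. Length here is the genomic span of the locus, introns included, and the length classes were set after the values were seen. The 60 risen members had a median length of 1920 bases, the 46 fallen ones 5924 bases and the 398 uncalled ones 3937 bases. Of the 152 members under 2500 bases, 36 rose and 5 fell in the paired fit (23.7% and 3.29%, against 15.4% and 5.73% of all tested loci of that length). Among the 36 are members that passed the filter through o11 alone. Of the 179 members of 5000 bases or more, 11 rose and 29 fell (6.15% and 16.2%, against 5.45% and 13.4%). The 173 members between had 13 rises and 12 falls (7.51% and 6.94%, against 8.85% and 8.70%). The median member under 2500 bases had 5.08, 6.74 and 5.96 FPKM in o11 and 3.17, 5.83 and 3.85 FPKM in WT, higher in o11 in each pair. The median member of 5000 bases or more had 11.3, 10.8 and 9.20 FPKM in o11 and 12.7, 11.9 and 11.7 FPKM in WT, lower in o11 in each pair.

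The median log2 change was 0.26 for members under 2500 bases and -0.09 for those of 5000 bases or more. In the rest of chromosome 3 these medians were 0.12 and -0.09, and over all tested loci 0.13 and -0.09. The direction is therefore shared with the rest of the genome, and whether its size in short loci differs at the chromosome 3 end was not tested. Under each scaling and pseudocount and in each subset of loci or libraries run here, the short-locus median stayed between 0.15 and 0.44. The long-locus median stayed between -0.12 and -0.05. Dropping the low-value filter or the mean-variance trend could not move these medians, since neither alters the log2 change of a locus. Level moved with length: members with a mean under 10 FPKM rose 34 times and fell 7 times (12.8% and 2.64%, against 8.79% and 4.04% of all tested loci of that level). Those from 10 to 100 FPKM rose 23 times and fell 36 times (10.4% and 16.2%, against 9.9% and 14.4%). Within the 10 to 100 FPKM class, 11 short members rose and 4 fell of 50 (22% and 8.0%, against 18.9% and 8.38% of all such loci), while 5 long members rose and 23 fell of 92 (5.43% and 25%, against 5.24% and 19.3%). Under 10 FPKM, 24 short members rose and 1 fell of 96 (25% and 1.04%, against 12.6% and 3.55%). These rises include the loci with starts 205086254, 206923290, 207022058 and 229732592, which passed the filter through o11 alone. The counts were not retaken without them. Long ones of that level rose 4 times and fell 4 times of 81 (4.94% each, against 5.23% and 4.75%). At 100 FPKM or more, 2 of 6 long members rose and 2 fell (33.3% each, against 12.4% and 27.6%). Of 6 short ones, 1 rose (16.7%, against 26.5%). Long members thus had more falls than rises from 10 to 100 FPKM, and as many of each below and above that range. Above it there are only 6 long members, and of all 225 long tested loci of that level 28 rose and 62 fell. Replicate number moved with length too. Short members were higher in replicate 3 than in the mean of replicates 1 and 2, by a median of 0.13 in o11 and 0.17 in WT on the log2 scale, and long ones by -0.03 and 0.01. The part of level, replicate and read counting in the length pattern was not tested.

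**Figure D5:**
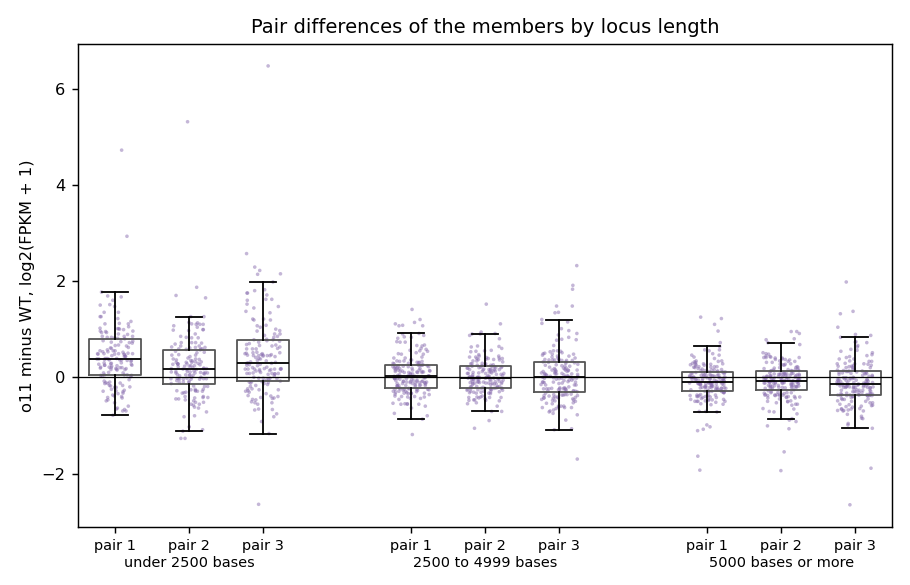
Difference between o11 and WT libraries of the same replicate number, in log2(FPKM + 1), for members of 3 length classes, 1 point per member, with boxes from the lower to the upper quartile, the median as a line and whiskers to the farthest point within 1.5 box heights. The medians for members under 2500 bases are 0.38, 0.17 and 0.29, and those for 5000 bases or more -0.09, -0.07 and -0.14.

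Some members varied far more between libraries than between genotypes. The locus chr3:228582713-228584640 (23.50 Mb) had 6.60, 15.2 and 5.76 FPKM in o11, against 0, 6.49 and 41.1 FPKM in WT. Its pair differences were 2.93, 1.11 and -2.64, and an exact 0 beside such values can be a failed estimate. It was not called (limma adjusted p = 0.922, and 0.770 in the paired fit), but passed the paired fit without either replicate 3 library (limma adjusted p = 0.0299 and 0.0318). The short loci chr3:215419544-215419920 and chr3:230480803-230481862 followed, with pair differences of 1.01, -0.82 and 2.15 and of 0.18, -0.64 and 1.71. In both genotypes alike, 10 members were at least 2-fold higher in replicate 3 than in replicates 1 and 2, and 18 at least 2-fold lower. Of the members with such a shared replicate 3 shift, 3 were called between genotypes in the paired fit, against 106 of all 504 members. Such shifts were counted over the members only, so they are not shown to be particular to the chromosome 3 end.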

How the data were processed

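Expression was read from 6 tables, 1 per library, each with 32666 loci. The authors deposited FPKM values, per the file headers. Bowtie 0.12.2 is named for the replicate 1 libraries, TopHat and Cufflinks without versions for the others, and B73 RefGen_v3 for all, per the submitters' processing notes. Annotation, strand setting and scaling are not given in the sources used here. Deposited starts count from 0 (some scaffold loci start at 0) and are printed counted from 1. The reference gene table at hand is of another build (Zm-B73-REFERENCE-NAM-5.0) and shares no identifier with the files.

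The model was limma (version 3.58.1, R version 4.3.3) with a mean-variance trend on log2(FPKM + 1), fitted over the 22314 loci that passed the low-value filter, and its p-values were adjusted by Benjamini-Hochberg at 0.05. The paired fit adds the replicate number as a block. That the numbers pair the libraries comes from the data, not the labels: over all tested loci the deviations of same-numbered libraries correlated at 0.75, 0.67 and 0.76, above the limit of 0.1. Changes on this scale understate those of low loci.

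The members and lists were chosen with earlier results of these data known. Named loci were all members called without the block, the 8 largest paired rises and falls with at least 5 FPKM in the higher genotype and the same sign in each pair, the 6 most abundant members, those at the position limit, and the 3 with the widest pair differences. Other loci named were chosen after their values were seen.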

Additional observations from a re-analysis of the deposited data

How the results depend on the processing

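The replicate 1 and 2 libraries alone, and each alternative run for the 2-fold calls, were added after the data were seen. Adding the replicate block turned the 4 called members into 106, and quantile normalization gave 7. They were 0 in the replicate 2 and 3 libraries alone or the replicate 1 and 2 libraries alone. In these 46 and 76 members had an unadjusted p under 0.05 in limma, without counts over all tested loci to set beside them. Leaving out 1 library gave 0 to 1 called members. In the paired fit the 106 became 69 with no filter on low values, 11 in the replicate 2 and 3 libraries alone, and 11 to 127 when 1 library was left out: o11 replicate 1 or 2 left 12 or 21, and WT replicate 1 or 2 left 11 or 20. Calls over all tested loci moved likewise, to 9.14% with no filter, 2.13% in the replicate 2 and 3 libraries and 2.1% to 23.6% with 1 library left out, against 19.2%. The 11 left in the replicate 2 and 3 libraries were all among the 106. The 27 paired calls of at least 2-fold became 9 in the replicate 2 and 3 libraries alone, and 9 to 22 when 1 library was left out, with 9 or 18 left by replicate 1 or 2 of either genotype. By construction, leaving out a library removes its whole pair from the paired contrast and lowers the residual degrees of freedom. The median change of 0.02 became -0.01 with quantile normalization and 0.06 with upper-quartile scaling, and ran from -0.02 to 0.05 with 1 library left out. Its difference from the rest of chromosome 3, 0.02, became -0.01 in the replicate 1 and 2 libraries and 0.03 with the stretch starting at 200 Mb, and ran from -0.01 to 0.03 with 1 library left out. For these shifts the cause was not tested. No named locus that was called changed sign under the alternatives run for it. Depth is unknown, so no counting interval can be given.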
